A study of Mus musculus with 6 samples.

Results

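Heat shock proteins and their partners were examined in hearts that expressed human SRY and in control hearts. The members were all probes of the heart array whose gene symbol named a heat shock protein (Hsp), Cryab, a DnaJ protein, a Bag protein (Bag1 to Bag5 were on the array) or heat shock factor 1 or 2. They were 95 probes of 70 genes, out of 25697 probes of 18138 symbols.

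The arrays held whole hearts of male FVB mice (FVB/N in the methods) at P6 (postnatal day 6), 3 hSRY-ON and 3 hSRY-OFF, with 1 array for each heart. The hSRY-ON mice carried a single-copy Signalox-hSRY responder transgene at the H11 locus of chromosome 11. In them, Cre recombinase made by the Ddx4-Cre mother in the oocyte had removed a DsRed2 cassette in the one-cell embryo. The CAG promoter, which is active in most tissues, then drove FLAG-tagged human SRY together with EGFP. The hSRY-ON mice chosen for the arrays had not inherited Ddx4-Cre itself. By the methods, hSRY-OFF means an unrecombined responder, with DsRed2 on and SRY silent, whereas the results speak of control littermates with Ddx4-Cre alone or no transgene, so the genotype of the control hearts is not certain. Human SRY was not measured on this mouse array, so the transgene could not be checked in these values. The paper reports that hSRY-ON pups suckled little, lacked milk in the stomach and grew more slowly than littermates, and that some had died by P6. The comparison asked which chaperone transcripts differed between hearts with ectopic SRY and control hearts. In this design SRY itself cannot be told apart from poor feeding and growth, and their part in the differences was not tested.

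Chaperones keep other proteins from misfolding. Small heat shock proteins hold unfolded client proteins, and several of them are abundant in heart muscle, where they protect the contractile filaments. Hsp70 proteins bind and release clients in a cycle driven by ATP: DnaJ proteins (Hsp40) deliver the client and start ATP hydrolysis, and Bag proteins and other exchange factors let it go. Hsp90 finishes the folding of kinases and steroid receptors, the Hspd1 and Hspe1 chaperonin folds proteins inside mitochondria, and heat shock factor 1 (Hsf1) switches many of these genes on under stress.

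Of the 95 member probes, 63 (of 54 genes) were tested, because they were above background on at least 3 of the 6 arrays. Relative to hSRY-OFF, 8 probes of 8 genes were higher in hSRY-ON hearts and 15 probes of 12 genes were lower, at a Benjamini-Hochberg adjusted p under 0.05 in limma. The 23 called probes were 36.5% of the tested members, beside 27.5% of all 12970 tested probes on the array. The background was 13.8% of all tested probes called higher and 13.7% called lower. The hSRY-ON and hSRY-OFF hearts did not overlap in 36 of the 63 member probes, beside 45.2% of all tested probes. The median change of the members was -0.08 on the log2 scale, and that of all tested probes was -0.0046. All values below are background-corrected, quantile-normalized log2 intensities, on which a difference of 1 is a 2-fold change, and every change is given as the hSRY-ON mean minus that of hSRY-OFF, with its standard error (SE).

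**Figure D1:**
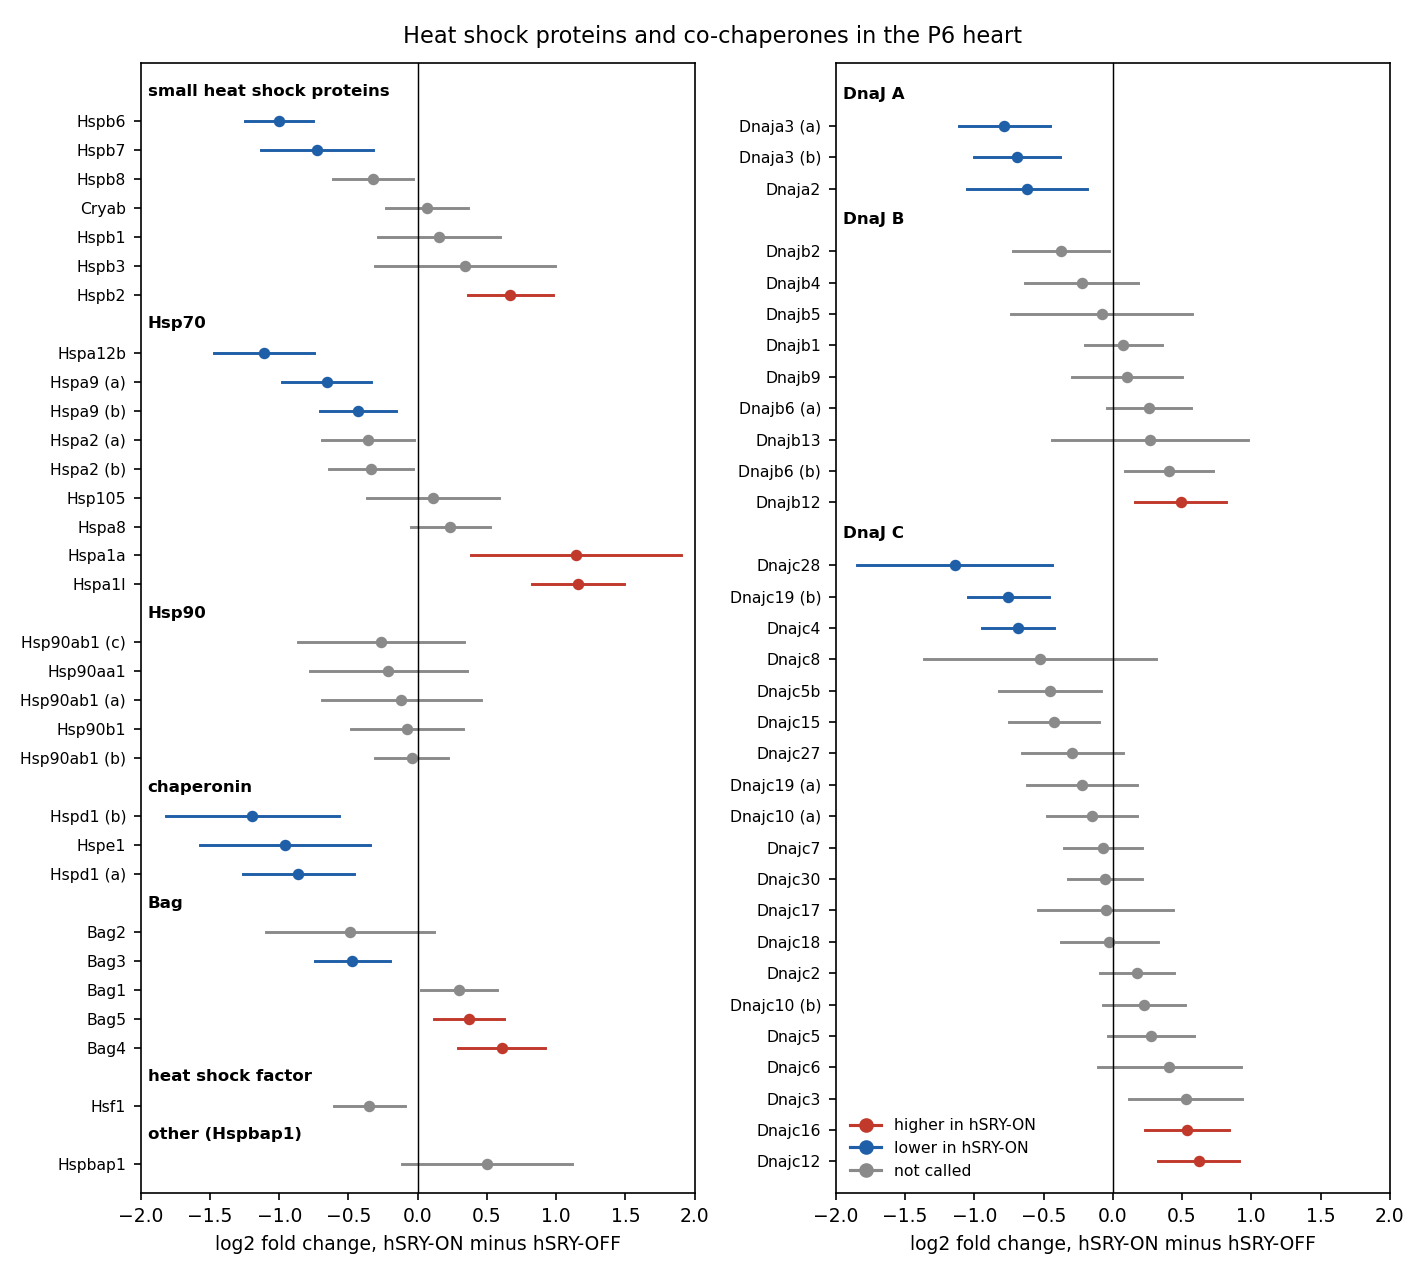
Log2 fold change (hSRY-ON minus hSRY-OFF, horizontal axis) of each of the 63 tested member probes, grouped by class, with points for the estimate, bars for its 95% confidence interval and letters for different probes of a gene. All probes of the chaperonin and DnaJ A classes lay to the left of 0 and were called lower, no Hsp90 probe was called, and the small, Hsp70, DnaJ C and Bag classes held calls on both sides.

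The 7 small heat shock proteins were all detected in every heart, and they did not move one way. Hspb6 and Hspb7 were lower in hSRY-ON hearts, Hspb2 was higher, and Cryab, Hspb1, Hspb3 and Hspb8 did not pass the test. The class median was 0.06. Hspb6 (Hsp20), a muscle small heat shock protein that is phosphorylated on beta-adrenergic stimulation, measured 14.49, 14.46 and 14.45 in the 3 hSRY-OFF hearts and 13.47, 13.44 and 13.47 in the 3 hSRY-ON hearts. The hearts of each group lay within a few hundredths of each other and the groups were far apart. The change was -1.003 (SE 0.11, limma adjusted p = 0.00078), or 2.004-fold lower, and it stayed between -1.02 and -0.98 when each heart in turn was left out.

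Hspb7, a cardiovascular small heat shock protein that binds actin-associated filamin, was 13.02, 13.04 and 12.63 in hSRY-OFF hearts and 12.14, 11.95 and 12.42 in hSRY-ON hearts. Its lowest hSRY-OFF heart, replicate 3, came close to its highest hSRY-ON heart, also numbered replicate 3, without overlap. Hspb7 was 1.66-fold lower (log2 -0.73, SE 0.17, limma adjusted p = 0.019), and the call was lost without replicate 1 or 2 of hSRY-OFF or replicate 1 or 2 of hSRY-ON, with changes between -0.86 and -0.62 over the 6 runs that each left out 1 heart. Hspb2, which associates with the kinase DMPK in muscle, moved the opposite way, from 10.60, 10.75 and 10.93 in hSRY-OFF to 11.43, 11.34 and 11.52 in hSRY-ON hearts. Every hSRY-ON heart was above every hSRY-OFF heart, and the difference was 1.59-fold (log2 0.67, SE 0.13, limma adjusted p = 0.0086).

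Cryab (alpha B-crystallin), the desmin-binding small heat shock protein, lies on chromosome 9 with Hspb2. In the annotation used, Hspb2 (50751072 to 50752354) falls inside the span of Cryab (50745951 to 50756636). Cryab gave 13.42, 13.33 and 13.22 in hSRY-OFF and 13.49, 13.23 and 13.45 in hSRY-ON hearts. The groups overlapped, and the change of 0.06 had a 95% confidence interval from -0.23 to 0.36. The log2 ratio of Hspb2 to Cryab in each heart was 0.60 greater in hSRY-ON, and the ratios of the groups did not overlap. An exact two-sided permutation test over the hearts gave p = 0.1, the smallest p that 3 against 3 hearts allow (adjusted p = 0.3 over the 3 neighbouring pairs compared this way). Among the other members of the class, Hspb8, the partner of Bag3 in clearing damaged muscle filaments, was below the hSRY-OFF range in all 3 hSRY-ON hearts, but its change of -0.33 (SE 0.12) had an adjusted p of 0.091 in limma. Hspb1 (Hsp25) changed by 0.16 (SE 0.19) and Hspb3 by 0.34 (SE 0.28), both with overlapping groups.

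**Figure D2:**
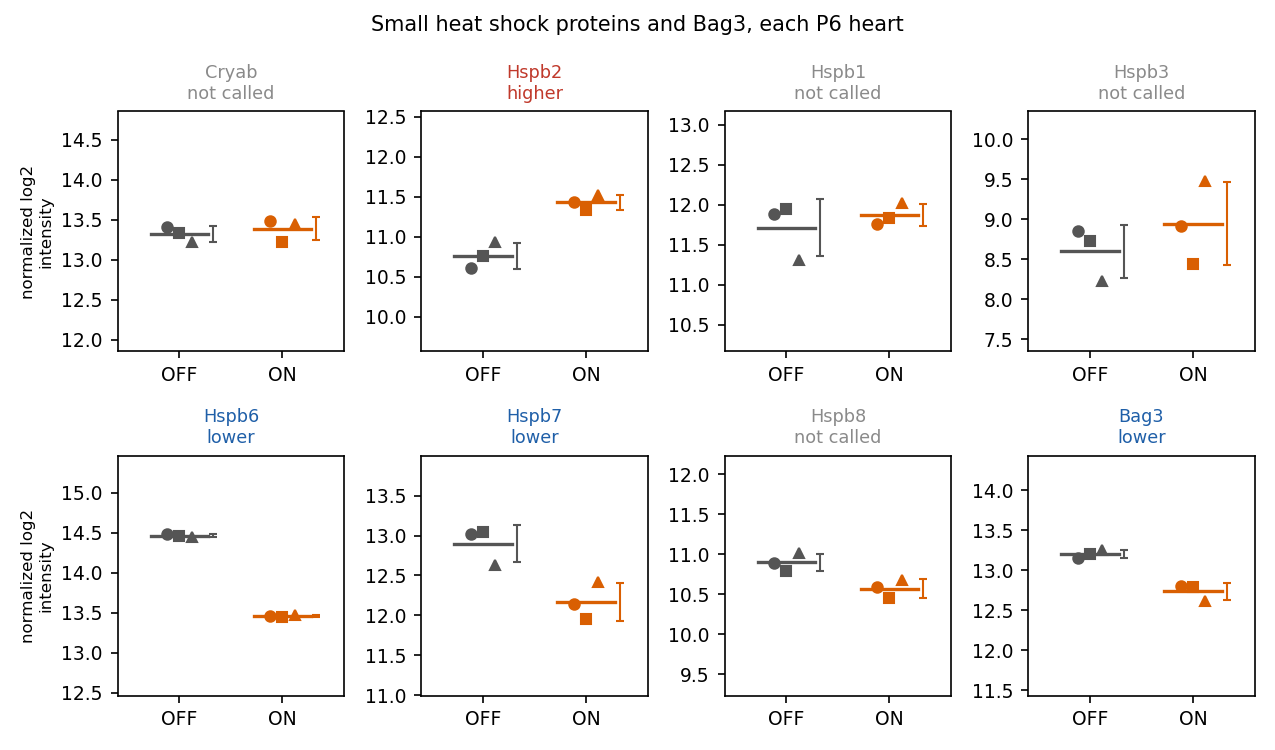
Normalized log2 intensity of the 7 small heat shock proteins and Bag3 in each heart (grey hSRY-OFF, orange hSRY-ON; circle, square and triangle are replicates 1, 2 and 3), with group means as lines, SD as bars and vertical axes that each span 3 log2 units. Hspb6, Hspb7 and Bag3 sat lower in hSRY-ON, Hspb2 sat higher, and Cryab overlapped.

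The promoter of Hspb6 is shown because Hspb6 was the lowered small heat shock protein whose promoter held a match to a heat shock element. A heat shock element is the binding motif of heat shock factors, built of inverted GAA and TTC boxes, and it was searched as GAANNTTC or TTCNNGAA, each of which reads the same on both strands. RefSeq (GRCm38.p6) gives 2 starts for Hspb6, and the 150 bases before one of them are chr7:30553151-30553300 (plus strand), with the motif match in capitals, 120 bases before the start:
Hspb6: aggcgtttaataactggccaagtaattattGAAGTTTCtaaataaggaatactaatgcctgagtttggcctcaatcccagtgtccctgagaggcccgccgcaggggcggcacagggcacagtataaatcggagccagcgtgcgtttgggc
No match was present before the other Hspb6 start or in the Hspb7 promoter, searched in each case from 250 bases before to 50 bases after the start, and Hspb2 and Cryab had no entry in the promoter table used here.

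The Hsp70 class had 16 probes of 13 genes, of which 9 probes of 7 genes were tested. Hspa1a and Hspa1l were higher in hSRY-ON hearts, Hspa12b and Hspa9 were lower, and Hspa8, Hspa2 and Hsp105 did not pass the test. Hspa1a, the classical stress-inducible Hsp70, was 5.72, 6.10 and 5.61 in hSRY-OFF hearts and 6.74, 7.72 and 6.39 in hSRY-ON hearts. The hSRY-ON hearts were all higher but spread widely, with replicate 2 well above the others. The probe was dim, although detected in every heart. Its raw intensities were 203, 238 and 162 in hSRY-OFF and 229, 340 and 208 in hSRY-ON hearts, and these overlapped between groups. The change was 1.14 (SE 0.33, limma adjusted p = 0.037), or 2.20-fold, and it ranged from 0.76 to 1.42 with 1 heart left out and was 0.46, still called, without background correction. The call was lost without any 1 of the 3 hSRY-OFF hearts or without hSRY-ON replicate 1. Hspa1b, its nearly identical copy, had no probe of its own in the table, so RNA of either copy may contribute to this signal and they cannot be told apart.

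Hspa1l, a constitutive Hsp70 best known from testis, is the next gene to Hspa1a on chromosome 17. It measured 7.18, 7.11 and 6.999 in hSRY-OFF hearts and 8.25, 8.04 and 8.47 in hSRY-ON hearts. The groups were separated by more than the range within either, and Hspa1l was 2.23-fold higher (log2 1.16, SE 0.14, limma adjusted p = 0.0013). Without background correction the change was 0.69, also called. The ratio of Hspa1l to Hspa1a differed by 0.02 on the log2 scale between the groups (exact permutation p = 1, adjusted p = 1). The log2 ratios in the single hearts were 1.46, 1.01 and 1.39 in hSRY-OFF (SD 0.24) and 1.51, 0.32 and 2.08 in hSRY-ON (SD 0.90). With this scatter, the small difference of means does not show that the genes rose together in each heart. The promoter of Hspa1a is shown because Hspa1a was the only higher member with a promoter entry that held a 2-box heat shock element match. The 150 bases before its start are chr17:34972157-34972306 of GRCm38.p6 (minus strand, from RefSeq), with the match in capitals 104 bases before the start:
Hspa1a: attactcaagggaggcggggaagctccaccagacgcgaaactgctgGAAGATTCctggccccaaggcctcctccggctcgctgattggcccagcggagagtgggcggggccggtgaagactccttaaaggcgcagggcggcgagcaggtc
The 300 bases of the Hspa1a and Hspa1b promoters were equal at 296 positions, and the Hspa1l promoter held no match.

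Hspa12b, an atypical Hsp70 relative found mainly in endothelial cells, fell in hSRY-ON hearts. Its values were 10.19, 10.30 and 10.02 in hSRY-OFF and 9.31, 9.04 and 8.84 in hSRY-ON hearts, with no overlap. It was 2.16-fold lower (log2 -1.11, SE 0.15, limma adjusted p = 0.0022). Of the 5 endothelial markers listed, Cdh5 (log2 -0.72) and Tek (-0.45) were also called lower, Emcn (0.53) was called higher, Pecam1 was not called and Kdr was not detected. The summed intensity of the endothelial markers ranged over 8500 to 13000 among hSRY-OFF hearts and over 9770 to 11400 among hSRY-ON hearts. The part of endothelial content in the Hspa12b result was not tested, and in whole-heart RNA fewer cells of a type cannot be told apart from less RNA per cell.

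Hspa8 (Hsc70), the constitutive cytosolic Hsp70, was 13.74, 13.54 and 13.70 in hSRY-OFF and 14.01, 13.79 and 13.88 in hSRY-ON hearts. The groups did not overlap, but the change of 0.23 (SE 0.12) had a limma adjusted p of 0.19. Both Hspa2 probes were lower in every hSRY-ON heart than in any hSRY-OFF heart, by -0.36 (SE 0.14) and -0.34 (SE 0.13), with limma adjusted p of 0.10 and 0.092. The first of them was called lower, at -0.49, when hSRY-ON replicate 1 was left out. Hsp105 (Hsph1), a large Hsp70 relative that works as an exchange factor, changed by 0.11 (SE 0.20) with overlapping groups. Hspa9, the mitochondrial Hsp70, is described with the chaperonin.

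The Hsp90 class had no called probe, and its 5 tested probes changed between -0.26 and -0.04 (limma, with 0 of them at an unadjusted p under 0.05). The cytosolic Hsp90ab1 had 3 probes, with changes of -0.12 (SE 0.25), -0.04 (SE 0.11) and -0.26 (SE 0.26). On the first and last of these, hSRY-OFF replicate 3 read 10.79 and 9.20, below the other hSRY-OFF hearts at 11.79 and 11.60 and at 10.04 and 10.23. Without that heart both probes were called lower, at -0.42 and -0.58. Hsp90aa1, the inducible cytosolic isoform, was near background, being detected in 2 hSRY-OFF hearts and 1 hSRY-ON heart, and changed by -0.21 (SE 0.24). Hsp90b1 (Grp94), the Hsp90 of the endoplasmic reticulum, changed by -0.08 (95% confidence interval -0.48 to 0.33).

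**Figure D3:**
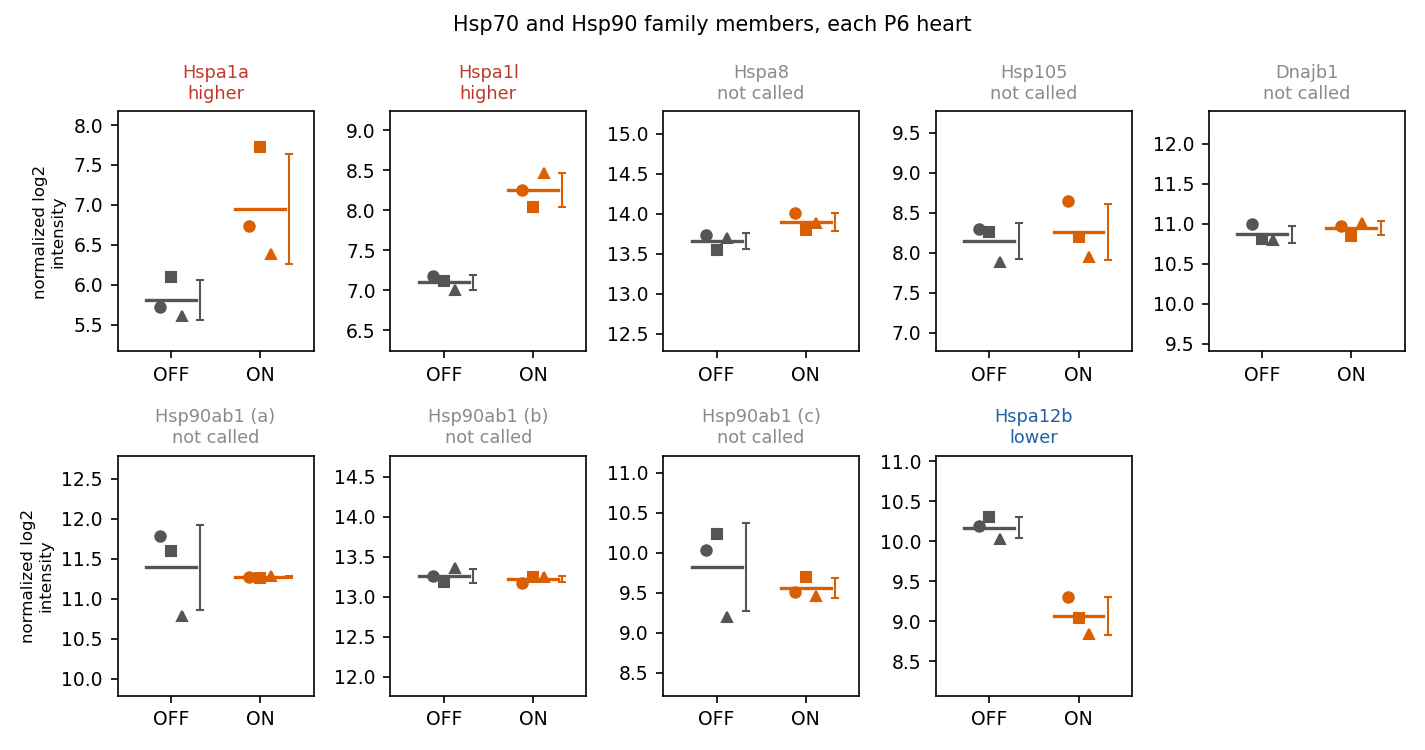
Normalized log2 intensity of Hsp70 and Hsp90 family members and Dnajb1 in each heart (grey hSRY-OFF, orange hSRY-ON; circle, square and triangle are replicates 1, 2 and 3; lines are means, bars SD, each vertical axis spans 3 log2 units, letters mark probes of a gene). Hspa1a and Hspa1l sat higher and Hspa12b lower in hSRY-ON, whereas hSRY-OFF replicate 3 sat apart from its group on probes a and c of Hsp90ab1.

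Of the 9 mitochondrial members tested, 7 were lower in hSRY-ON hearts. Of their 13 tested probes, 10 were called lower (76.9%, beside 13.7% of all tested probes) and none was called higher. All 13 changes were below 0, with a median of -0.69. The groups did not overlap in 11 of the 13, beside 45.2% of all tested probes. The list itself was not tested. The 50 tested probes of the other members had 8 called higher and 5 called lower, with a median of 0.02. These calls were 26.0%, beside 27.5% of all tested probes.

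Hspd1 (Hsp60) forms the barrel of the mitochondrial chaperonin and Hspe1 (Hsp10) its lid. A first Hspd1 probe read 11.58, 11.36 and 11.26 in hSRY-OFF and 10.45, 10.30 and 10.85 in hSRY-ON hearts, a change of -0.86 (SE 0.17, limma adjusted p = 0.0094). The second read 11.31, 11.55 and 10.65 in hSRY-OFF and 9.91, 9.65 and 10.37 in hSRY-ON hearts, which was 2.29-fold lower (log2 -1.19, SE 0.27, limma adjusted p = 0.015). Neither probe overlapped between groups, and the call of the second was lost without hSRY-OFF replicate 1 (range with 1 heart left out, -1.45 to -1.01). Hspe1 was 7.75, 8.38 and 7.75 in hSRY-OFF and 6.82, 6.68 and 7.52 in hSRY-ON hearts. Its hSRY-ON replicate 3 lay just under the hSRY-OFF hearts and the other hSRY-ON hearts well below. Hspe1 changed by -0.96 (SE 0.26, limma adjusted p = 0.033), a call lost without replicate 1 or 2 of either group, where the 6 runs gave -1.22 to -0.75. It was -0.54, also called, without background correction. The ratio of Hspd1 (first probe) to Hspe1 differed by 0.10 on the log2 scale between groups (exact permutation p = 0.8, adjusted p = 1). In the single hearts the log2 ratios were 3.83, 2.97 and 3.50 in hSRY-OFF (SD 0.43) and 3.64, 3.63 and 3.33 in hSRY-ON (SD 0.17). Given this scatter, the small difference of means does not show that the genes fell together in each heart.

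Hspd1 and Hspe1 are transcribed away from each other from a shared promoter on chromosome 1, shown here because both genes fell. RefSeq gives 2 starts for Hspd1, and the stretch of 215 bases between the Hspe1 start and the Hspd1 start outside Hspe1 is printed. On GRCm38.p6 (RefSeq) it is chr1:55087933-55088147, written on the plus strand, the strand of Hspe1, with a run of 4 alternating heat shock boxes over 18 bases in capitals, 89 to 72 bases before the Hspe1 start:
Hspd1-Hspe1: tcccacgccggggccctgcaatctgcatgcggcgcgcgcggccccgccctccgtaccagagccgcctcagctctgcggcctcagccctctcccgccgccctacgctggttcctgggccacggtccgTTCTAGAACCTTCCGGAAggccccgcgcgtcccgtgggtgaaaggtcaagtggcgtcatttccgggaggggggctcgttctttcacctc
This run gives 3 overlapping 2-box matches, and it also holds the 3-box form GAANNTTCNNGAA or TTCNNGAANNTTC, which are reverse complements of each other. The promoter of the other Hspd1 start held no match.

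Hspa9 (mortalin), the mitochondrial Hsp70, pulls proteins through the inner membrane and folds them. Its probes read 12.87, 12.73 and 12.58 against 12.06, 11.92 and 12.23, and 13.67, 13.65 and 13.52 against 13.08, 13.21 and 13.27, in hSRY-OFF against hSRY-ON hearts. Both were lower without overlap, by -0.66 (SE 0.14, limma adjusted p = 0.011) and -0.43 (SE 0.12, limma adjusted p = 0.032). The call of the second probe was lost without replicate 1 or 2 of either group (-0.48 to -0.38). Grpel1 and Grpel2, the exchange factors of Hspa9, which are not among the members, were also called lower, by -0.75 (SE 0.12, limma adjusted p = 0.0044) and -0.59 (SE 0.16, limma adjusted p = 0.031).

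Dnaja3 (Tid1), the main DnaJ partner of Hspa9 in the matrix, was lower on both probes. One read 12.28, 12.02 and 11.99 in hSRY-OFF and 11.45, 11.47 and 11.29 in hSRY-ON hearts, a change of -0.69 (SE 0.13, limma adjusted p = 0.0078). The other read 5.84, 5.90 and 5.99 against 4.91, 5.33 and 5.14, a change of -0.78 (SE 0.14, limma adjusted p = 0.0062), was above background in only 1 hSRY-ON heart, and moved to -0.22 and was not called without background correction (-0.45, called, with an offset of 50). Dnajc19, a subunit of the import motor whose loss causes a childhood cardiomyopathy, had 3 probes. The probe called lower was 13.19, 13.17 and 13.02 in hSRY-OFF and 12.30, 12.29 and 12.53 in hSRY-ON hearts (log2 -0.75, SE 0.13, limma adjusted p = 0.0045). A dimmer probe of Dnajc19 changed by -0.22 (SE 0.17) with overlapping groups, and the remaining probe was not detected, so the probes of this gene disagree in size.

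Dnajc28 read 6.77, 6.69 and 6.54 in hSRY-OFF and 5.07, 6.29 and 5.22 in hSRY-ON hearts. Only hSRY-ON replicate 2 was above background in its group, and the change of -1.14 (SE 0.30, limma adjusted p = 0.028) ranged from -1.52 to -0.92 with 1 heart left out, and was -0.38 without background correction and -0.74 with an offset of 50, called in both. Its call was lost without replicate 1 or 2 of hSRY-OFF or replicate 1 or 3 of hSRY-ON. Dnajc4 fell evenly, from 9.64, 9.57 and 9.65 to 8.86, 9.01 and 8.94 (log2 -0.68, SE 0.11, limma adjusted p = 0.0042). Dnajc15, which sits in the import motor beside Dnajc19, was lower in every hSRY-ON heart without reaching the threshold (log2 -0.42, SE 0.14, limma adjusted p = 0.057). Dnajc15 was called without background correction, with an offset of 50, with a median shift between arrays and with an intensity trend in eBayes. It was also called with detection on all 6 arrays, with a detection p-value under 0.01 and without hSRY-ON replicate 3. Dnajc30 changed by -0.05 (95% confidence interval -0.32 to 0.21), and the 3 probes of Dnajc11 were detected on no array.

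**Figure D4:**
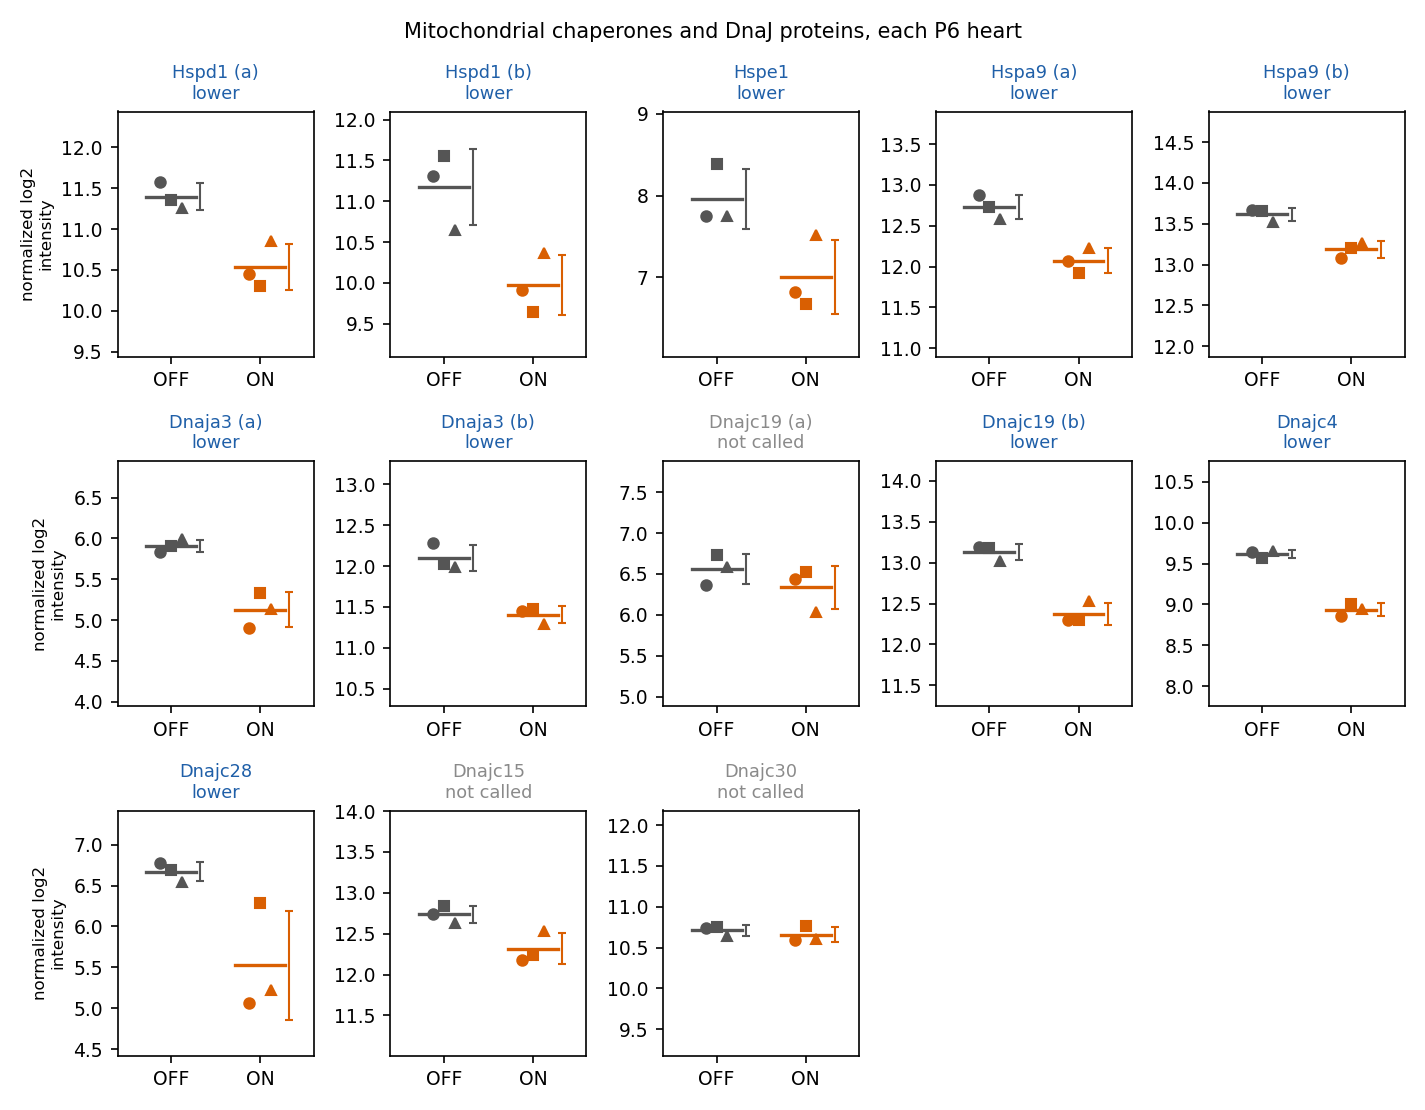
Normalized log2 intensity of the 13 tested probes of mitochondrial members in each heart (grey hSRY-OFF, orange hSRY-ON; circle, square and triangle are replicates 1, 2 and 3; lines are means, bars SD, each vertical axis spans 3 log2 units, letters mark probes of a gene). In 11 of the 13 panels all hSRY-ON hearts lay below all hSRY-OFF hearts, the exceptions being Dnajc30 and probe a of Dnajc19. Over all tested probes, the groups did not overlap in 45.2%, in either direction.

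The DnaJ proteins as a whole had 55 probes of 37 genes on the array. Of 32 tested probes, 3 were called higher and 6 lower (28.1%, beside 27.5% of all tested probes). In the A class, which resembles bacterial DnaJ most closely, all 3 tested probes were lower. They were those of Dnaja3 and of Dnaja2, a cytosolic partner of Hspa8, which read 6.66, 6.998 and 6.43 in hSRY-OFF and 5.999, 6.34 and 5.90 in hSRY-ON hearts. The change of Dnaja2 was -0.62 (SE 0.19, limma adjusted p = 0.044). It was -0.24 and not called without background correction, and the call was also lost without replicate 1 or 2 of hSRY-OFF or replicate 1 or 3 of hSRY-ON (-0.76 to -0.46).

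In the B class, 1 of 9 tested probes was called. Dnajb12, anchored in the membrane of the endoplasmic reticulum, was higher by 0.49 (SE 0.14, limma adjusted p = 0.038), and the call remained only without hSRY-OFF replicate 3 when hearts were left out (0.39 to 0.57). The other 7 tested genes of the class were not called, with changes between -0.38 for Dnajb2 and 0.40 for 1 probe of Dnajb6. Dnajb1, the heat-inducible Hsp40 of the cytosol, changed by 0.08 (SE 0.12). Both probes of Dnajb6, whose human gene is mutated in a limb-girdle muscular dystrophy, were higher in every hSRY-ON heart, by 0.40 (limma adjusted p = 0.062) and 0.26 (limma adjusted p = 0.17).

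In the C class, which shares only the J domain, 20 probes of 18 genes were tested, with 2 higher and 3 lower. The lower ones were Dnajc19, Dnajc4 and Dnajc28. Dnajc12, a partner of the aromatic amino acid hydroxylases, was 7.42, 7.68 and 7.59 in hSRY-OFF and 8.15, 8.30 and 8.11 in hSRY-ON hearts, 1.54-fold higher (log2 0.62, SE 0.13, limma adjusted p = 0.010), and its change was 0.39, also called, without background correction. Dnajc16 was 8.39, 8.61 and 8.53 in hSRY-OFF and 8.92, 9.20 and 9.02 in hSRY-ON hearts (log2 0.54, SE 0.13, limma adjusted p = 0.020). Neither overlapped between groups, and the Dnajc16 call was lost without replicate 1 of hSRY-OFF or replicate 2 of hSRY-ON (0.46 to 0.60). The other 13 tested genes changed by -0.53 to 0.53 and were not called. Among them Dnajc5b was above background in every hSRY-OFF heart and in no hSRY-ON heart. Its change was -0.45 (SE 0.16, limma adjusted p = 0.071), with a bound of 1.26-fold lower. Dnajc10 had probes of opposite sign, 0.23 (SE 0.13) and -0.15 (SE 0.14), neither of them called.

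Bag proteins bind the Hsp70 nucleotide-binding domain and release its client. Bag3, which with Hspb8 directs damaged filament proteins to autophagy in muscle, was 13.16, 13.21 and 13.26 in hSRY-OFF and 12.81, 12.79 and 12.61 in hSRY-ON hearts. All hSRY-ON hearts were lower, and the change was -0.47 (SE 0.12, limma adjusted p = 0.022). The call was lost without replicate 1 or 2 of hSRY-OFF or replicate 1 or 3 of hSRY-ON (-0.50 to -0.41). Bag4, a silencer of death-domain receptors, was 8.02, 8.06 and 7.71 in hSRY-OFF and 8.54, 8.58 and 8.49 in hSRY-ON hearts (log2 0.61, SE 0.13, limma adjusted p = 0.014). Bag5 was higher by 0.37 (SE 0.11, limma adjusted p = 0.040), and that call was lost in each of the 6 runs that left out 1 heart (0.33 to 0.39). Bag1 changed by 0.30 (SE 0.12, limma adjusted p = 0.10) without overlap, and Bag2, detected in 2 hearts of each group, by -0.49 (SE 0.26).

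Hsf1, the factor that turns on heat shock genes, was 11.11, 11.13 and 11.19 in hSRY-OFF and 10.83, 10.71 and 10.83 in hSRY-ON hearts. Every hSRY-ON heart was lower, and the change of -0.35 (SE 0.11) had a limma adjusted p of 0.051. Hsf1 was called without background correction, with an offset of 50 and with an intensity trend in eBayes. It was also called with no filter, with detection on all 6 arrays and with a detection p-value under 0.01. The other alternatives, and leaving out any 1 heart, gave no call. Hsf2 was detected in 1 heart and not tested. Of 16 textbook targets of heat shock factor 1 listed, 12 genes had tested probes. Hspa1a was called higher, Hspd1, Hspe1 and Bag3 were called lower, and Hsp105, Hspa8, Hspb1, Cryab, Hsp90aa1, Hsp90ab1, Dnajb1 and Dnajb4 were not called. This was 33.3% of 15 probes called, beside 27.5% of all tested probes, with a median change of -0.12. Hspbap1, a protein that binds Hspb1, changed by 0.50 (SE 0.26) and was not called.

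The members of the endoplasmic reticulum that respond to unfolded protein had 5 tested probes of 4 genes, and none was called by limma at the adjusted threshold, with 1 at an unadjusted p under 0.05. The median change was 0.10. That probe was Dnajc3 (p58IPK), an inhibitor of the kinase PERK, which was higher in every hSRY-ON heart (log2 0.53, SE 0.18, limma adjusted p = 0.062). Dnajb9 changed by 0.10 (SE 0.17). The single probe of Hspa5 (BiP), the main chaperone of this compartment, was detected on no array, so its level was not measured here.

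Altogether 16 member genes had no tested probe: Hspa4, Hspa4l, Hspa5, Hspa12a, Hspa13, Hspa14, Dnaja1, Dnajb3, Dnajb7, Dnajb8, Dnajc1, Dnajc5g, Dnajc9, Dnajc11, Dnajc14 and Hsf2. Of the untested probes, 9 were above background in hearts of 1 group only. For 5 of them (of Hspa4, Hspa4l, Dnaja1, Dnajc2 and Hsf2, each detected in 1 heart) the bound was under 1-fold and is not given. Dnajb3 and a second Dnajc30 probe were each detected in 2 hSRY-ON hearts, a second Dnajb4 probe in 2 hSRY-OFF hearts and Hspa12a in 1 hSRY-OFF heart. Of these 4, the bounds were 1.02-fold and 1.05-fold higher for the first pair and 1.10-fold and 1.06-fold lower for the second. These bounds carry no error, the values lay near background, and the groups overlapped for Dnajb3 and the Dnajb4 probe. No direction of change is therefore claimed for these probes.

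RefSeq promoters, from 250 bases before to 50 bases after each start, were matched for 54 of the 70 member genes. The 2-box heat shock element was found in 15 of these genes (27.8%), beside 17.0% of all 27025 genes and 15.1% of all 32851 promoters in the table. The stricter 3-box form was in 4 member genes (7.41%), namely Hsp105, Hspd1, Hspe1 and Dnajb6, beside 0.662% of all genes and 0.603% of all promoters. Of these 4 genes, Hspd1 and Hspe1 were lower in hSRY-ON hearts and Hsp105 and Dnajb6 were not called. The matches of Hspd1 and Hspe1 are the same run of boxes in their shared promoter. That run is counted for each of these genes in the 3-box and the 2-box counts. Among the genes with a promoter entry, the 2-box form was in 1 of 5 called higher, 4 of 11 called lower, 8 of 24 not called and 2 of 14 not tested. The SRY and SOX core AACAAT, searched on both strands, was in 5 member genes (9.26%), beside 12.2% of all genes and 10.7% of all promoters. It was in none of the 5 higher genes and in 1 of the 11 lower ones, Dnajc28. A match to such short letters is a description of the sequence and not a binding site.

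The partner chaperones outside the members were read from the same fit. Of 45 tested probes of 35 genes, 4 were called higher and 8 lower (26.7%, beside 27.5% of all tested probes). The 3 largest increases were those of Fkbp5, Sgtb and Sil1. Fkbp5, an Hsp90 co-chaperone of steroid receptors that is induced by glucocorticoids, was 7.11, 7.35 and 6.66 in hSRY-OFF and 9.14, 9.79 and 8.60 in hSRY-ON hearts, 4.40-fold higher (log2 2.14, SE 0.31, limma adjusted p = 0.0024). Fkbp4, its counterpart on the same receptors, went the opposite way, from 12.44, 12.49 and 12.47 to 11.41, 11.28 and 11.70, 2.002-fold lower (log2 -1.001, SE 0.14, limma adjusted p = 0.0022). Sgtb, an adaptor of Hsp70, was higher by 0.92 (SE 0.26, limma adjusted p = 0.034), and Sil1, the exchange factor of Hspa5, by 0.65 (SE 0.14, limma adjusted p = 0.014).

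The next largest decreases were those of Clpx and Trap1. Trap1, the mitochondrial Hsp90, was 11.41, 11.57 and 11.02 in hSRY-OFF and 10.64, 10.52 and 10.47 in hSRY-ON hearts (log2 -0.79, SE 0.16, limma adjusted p = 0.010). Clpx, the unfoldase of the mitochondrial Clp protease, changed by -0.95 (SE 0.27, limma adjusted p = 0.037) on 1 probe, and its second probe was not called. That of Clpx was the 1 probe called of 5 tested for mitochondrial Clp and HtrA proteins. All 5 changes were below 0, with a median of -0.38, and 3 had an unadjusted limma p under 0.05. In the cytosol, Unc45b, a myosin chaperone of muscle, was lower on 1 of its 2 probes (log2 -0.74, SE 0.23, limma adjusted p = 0.049), and the Hsp90 partners Ppid (-0.50) and Chordc1 (-0.47) were also called lower. The cytosolic chaperonin TRiC (7 tested probes) and its partner prefoldin (5 tested probes) had no called probe in limma. No TRiC probe and 1 prefoldin probe had an unadjusted p under 0.05, and the median changes were 0.06 and -0.03.

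**Figure D5:**
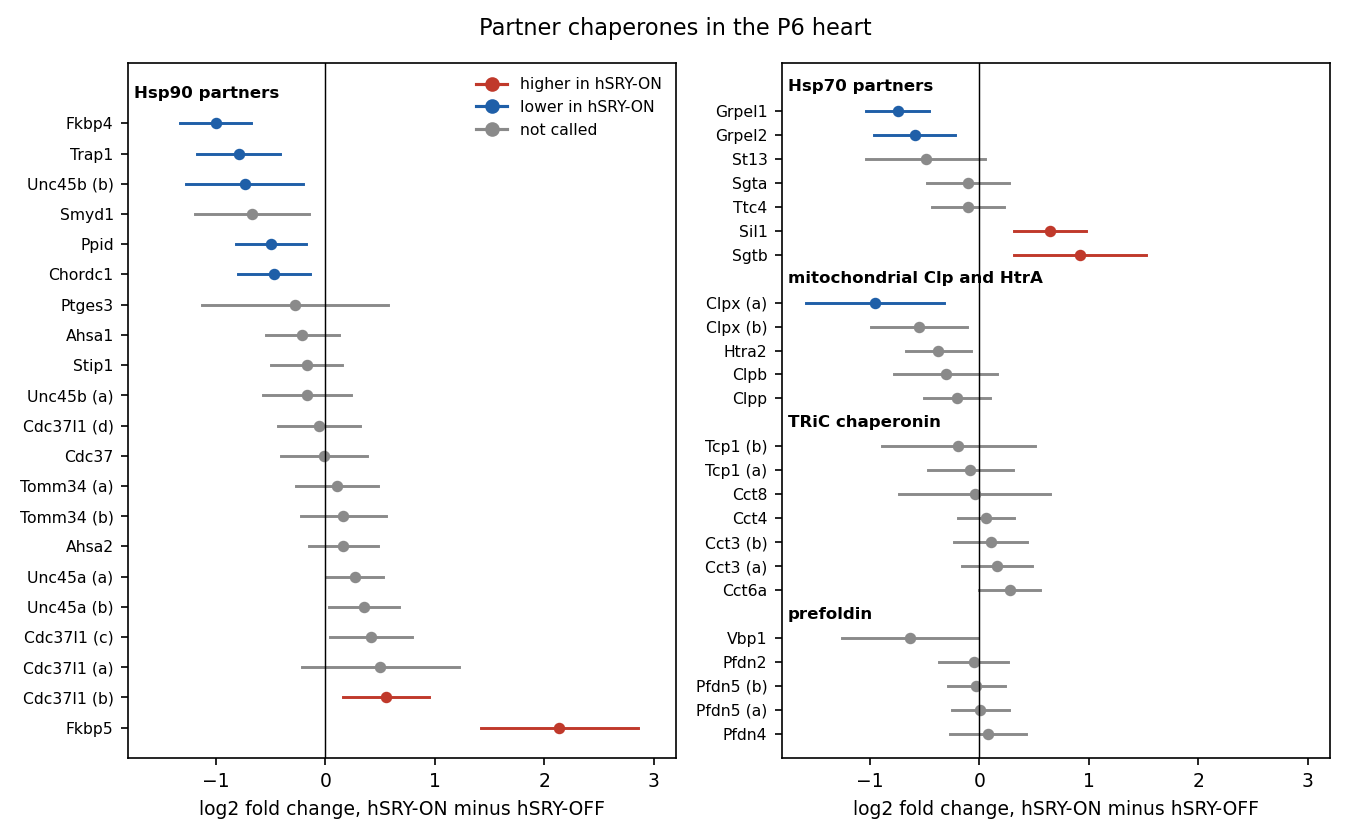
Log2 fold change (hSRY-ON minus hSRY-OFF, horizontal axis) of the 45 tested probes of partner chaperones, with points for the estimate, bars for the 95% confidence interval and letters for probes of a gene. Fkbp5 stood highest at 2.14, Fkbp4 lowest at -1.001, and no TRiC or prefoldin probe was called.

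The 6 arrays detected 47.2% to 51.3% of probes, no pair of arrays was identical, and hSRY-OFF replicate 3 was the dimmest, with a mean intensity of 631 beside 723 to 939 on the others. The heart label was borne out by its markers, since all 9 cardiomyocyte marker genes on the array were tested. Of these, Myh6, Pln, Ryr2 and Tnni3 were called lower and none higher, and their summed intensity ranged over 147000 to 206000 among hSRY-OFF hearts and over 154000 to 162000 among hSRY-ON hearts. Counted by the brightest probe of each gene, smooth muscle markers had 2 of 3 tested genes higher (summed intensity 27500 to 32500 in hSRY-OFF, 38300 to 41200 in hSRY-ON; Cnn1 was not detected) and macrophage markers 2 of 4 (2410 to 4110, then 4890 to 5170). A dimmer probe of a macrophage gene, Csf1r, was also higher, by 1.30 (limma adjusted p = 0.00089). None of 5 tested fibroblast genes was called on its brightest probe (22900 to 38900, then 22200 to 26500), although a second probe of Dcn was lower by -0.90 (limma adjusted p = 0.011). By the brightest probe, 1 of 4 red cell genes was lower (55300 to 57900, then 50700 to 53600). In brown fat markers 2 of 3 tested genes were higher (2470 to 3190, then 1570 to 3790). These were Adipoq (1.48) and Ucp1 (3.67, with overlapping groups), whereas Cidea was at -1.05 and not called. Fabp4 was detected in 2 hSRY-OFF hearts and in no hSRY-ON heart, and was not tested. In liver markers 2 of 2 tested genes were higher (722 to 915, then 1700 to 3360), and Alb was not detected. In skeletal muscle markers 1 of 2 was lower (1010 to 1340, then 989 to 1010), and Myh1, Myh2, Myh4 and Myod1 were not detected. The part of these differences in the results for Hspb6, Hspb7, Hspb2 and the mitochondrial members was not tested.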

How the data were processed

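Total RNA of whole hearts was hybridized by the authors to Illumina MouseRef-8 v2.0 arrays. They deposited a mean bead intensity and a detection p-value for each probe and heart, without normalization. Their methods name TCC and their processing notes limma, without settings or version, and the program behind the bead values is not given in the sources used here.

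The background was corrected, an offset of 16 added and the arrays quantile normalized with neqc (limma 3.58.1, R 4.3.3). Probes with a detection p-value under 0.05 on at least 3 of 6 arrays were tested with lmFit and eBayes (two-sided, Benjamini-Hochberg over all tested probes). Probes of a gene were not merged, and a gene counted as called where any of its probes was. The steps were also run on simulated data, and that run is not used here as evidence for any call. A bound took the lowest signal of detected probes on each array as floor for the group without detection, compared group means and carries no error. The number of arrays, 3 biological replicates a group, limits the precision.

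The members and gene lists were chosen with earlier results of these data known. Values in each heart are given for the called members with the 6 largest increases and decreases, the called small heat shock proteins and others picked after their values were seen. Outside the members, the 3 largest increases and decreases are named, with Grpel1 and Grpel2 picked afterwards. Alternatives covered background correction, normalization, the filter, the variance model, a replicate block and leaving out each heart. Plots came from matplotlib 3.10.9 under Python 3.11.15.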

Additional observations from a re-analysis of the deposited data

How the results depend on the processing

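The alternatives were run for the member probes, not for the partner chaperones or markers. No called member changed direction under any of them. Of the 23 calls, 12 were kept whichever heart was left out and 5 under every alternative that used all hearts. The same 5 were kept in every run, those of Hspb6, Hspa1l, Hspa12b, Dnajc19 and 1 probe of Hspd1 (-0.86). The 8 higher and 15 lower member probes became 2 and 9 without normalization between arrays, where the median of all probes moved to -0.12, 1897 probes were called in place of 3567, and 38.5% of calls were higher in place of 50.1%. That setting ended the calls of Hspb2, Dnajc12, Dnajc16, Dnajc4, Dnajb12, Dnaja2, Bag3, Bag4, Bag5, 1 probe of Dnaja3 and both of Hspa9. With 1 heart left out there were 4 to 7 higher and 8 to 18 lower. Taking the brightest probe of each gene gave 8 higher and 13 lower genes, beside 8 and 12 with every probe. Testing every probe, dim ones included, ended the calls of Hspa1a, Hspe1, Dnaja2 and Dnajc28 and added those of Hsf1 and Hspa12a. Hspa12a was near background and was not tested in the main fit. An intensity trend in eBayes gave 11 higher and 19 lower probes, no background correction 11 and 18. Both of these settings added calls of Bag1, Dnajb2, Dnajb6, Dnajc15, Hsf1, Hspa2 and Hspb8. Dnajc3 was added without background correction, and Hspa8 with the trend. An offset of 50 added Dnajb6, Dnajc15, Dnajc3 and Hsf1. The intensity of dim probes over background limits what can be said of them.

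Samples with the same replicate number did not deviate together (correlations of -0.02, 0.04 and -0.07), so the values gave no sign of pairing by number. The labels do not say what the numbers mean, and these correlations cannot exclude a shared litter or handling. With the replicate block, 6 higher and 10 lower probes were called. That block ended the calls of Hspb7, Hspe1, Bag3, Bag5 and Dnajb12. It also ended those of the Hspd1 probe at -1.19 and the Hspa9 probe at -0.43.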
